A study of Arabidopsis thaliana with 26 samples.

Results

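In Arabidopsis thaliana seedlings moved to high light, 46 of the 33602 genes in the count tables were high after 0.5 h and low after 72 h, and met a limit on their distance from growth light after a period back in it. They were chosen by 3 values, each a log2 ratio of group mean counts scaled to the library total (CPM) with 1 added to both. High light against growth light had to be at least 0.6 at 0.5 h and at most -0.6 at 72 h, and recovery against growth light at 72 h had to lie within 0.7 of 0. Of all genes, 1472 met the first condition, 1965 the second, 74 both, and 46 the recovery condition as well. All 46 are protein-coding nuclear genes, and all 46 passed the filter on low counts that left 21449 genes for testing. Of the members, 16 lie on chromosome 1, 7 on chromosome 2, 4 on chromosome 3, 9 on chromosome 4 and 10 on chromosome 5.

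The data are mRNA counts from whole 7-day-old seedlings of the ecotype Col-0, raised in constant light at 22 °C. Growth light (GL) was 60 µmol per m2 per s and high light (HL) 1200, with a stated leaf temperature of 22 °C, and both were sampled at 0.5, 6, 12, 24, 48 and 72 h. The recovery group was returned to growth light for 14 h once its 72 h in high light had ended. Each of the 13 groups has 2 libraries, every library is a pool of 25 plants, and totals ran from 13637677 to 29697279 counts. All groups are of the same ecotype, and the labels name no mutation, transgene or applied agent. A pool of whole seedlings mixes cotyledons, leaves, hypocotyl and root, and a lower value in it can mean fewer cells of a type or less RNA per cell, which cannot be told apart here. Whether a group's 2 libraries were separate cultures is not stated, so a p-value here reflects the spread between these libraries alone, and that spread may be technical.

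High light above what photosynthesis can use raises reactive oxygen and calcium signals in leaf cells within minutes, and these signals overlap with those that a microbe or a wound sets off. Genes of that general stress response code for receptor kinases, transporters and enzymes of defence metabolism, and WRKY transcription factors, which bind the W-box, are among the regulators of many of them. Over days in bright light, seedlings acclimate by changing photosynthetic proteins, pigments, cell walls and the balance between growth and defence.

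Sequence was not used to choose the members. In the window of 300 bases before the annotated start of each gene (RefSeq, TAIR10.1), 24 of the 46 members held a W-box core, TTGACC or TTGACT on either strand, which is 52.2% against 32.3% of all 27443 promoters. The TTGACT form was in 39.1% of members, 21.9% of all promoters, 27.6% of the other genes that were high at 0.5 h and 23.2% of the other genes that were low at 72 h. The TTGACC form was in 21.7% of members, 14% of all promoters, 18.8% of the other 0.5 h genes and 14.5% of the other 72 h genes. The rapid stress response element CGCGTT was in 8.7% of members, 3.08% of all promoters and 8.71% of the other genes high at 0.5 h. The G-box CACGTG was in 8.7% of members, 7.09% of all promoters and 16.4% of the other genes high at 0.5 h. In total, 10 motifs were searched. The GCC box GCCGCC was in 3 members, or 6.52%, and in 2.26% of all promoters. The evening element core AATATCT was in 17.4% and 11.8%, the I-box core GATAAG in 15.2% and 14.5%, and the telo box core AAACCCT in 8.7% and 8.51%. The auxin response element TGTCTC was in 10.9% of members and 13% of all promoters, and the DRE core ACCGAC in 4.35% and 5.45%. These shares were not tested, a match is no evidence of binding, and in 9 members the window reaches into a neighbouring gene. The stretches below are examples that hold 2 W-box matches, or CGCGTT and a W-box, and some other members have closer pairs. The stretches are given 5′ to 3′ on the strand of the gene, with only W-box and CGCGTT matches in capitals. GGTCAA or AGTCAA marks a W-box match on the other strand. Positions count back from -1, the base before the annotated start. In AT1G33600, a leucine-rich repeat gene on the plus strand, the matches begin at -143 and -127 (chr1:12180323-12180382). In AT4G36500, a gene of unknown function on the minus strand, they begin at -226 and -163 (chr4:17226984-17227073). In CKX4, a cytokinin oxidase gene on the plus strand, they begin at -129 and -120 (chr4:14566033-14566082). In AT5G54720, an ankyrin repeat gene on the minus strand, CGCGTT begins at -286 and a W-box at -239 (chr5:22233170-22233249). Not marked are an evening element core at -140 in CKX4 and a DRE core at -236 in AT5G54720, which overlaps the W-box. Closer pairs that are not shown include W-boxes at -90 and -83 in AT1G05575, and CGCGTT at -128 with a W-box at -123 in EXO70H7, which overlap. The windows of AT1G05575 and EXO70H7 are among those that reach into a neighbouring gene.
AT1G33600: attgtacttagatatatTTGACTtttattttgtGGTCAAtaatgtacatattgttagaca
AT4G36500: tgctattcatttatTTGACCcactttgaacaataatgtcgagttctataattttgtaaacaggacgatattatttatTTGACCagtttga
CKX4: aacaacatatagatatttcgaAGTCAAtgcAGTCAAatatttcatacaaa
AT5G54720: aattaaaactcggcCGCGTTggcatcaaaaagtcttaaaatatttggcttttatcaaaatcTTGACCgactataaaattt

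The values that chose the members are given as a description. The 0.5 h ratio ran from 0.61 to 2.05 with a median of 0.97, the 72 h ratio from -1.77 to -0.60 with a median of -0.88, and the recovery ratio from -0.65 to 0.26 with a median of -0.33. Recovery lay below the 72 h growth light level in 42 members and above it in 4. In 39 of the 46, both libraries of 0.5 h high light stood above all 24 other libraries, which 5.98% of all tested genes showed. The 7 others were GolS3, AT1G19530, AT1G51270, TIR, CRK13, XTH19 and PDF1.2. The lowest group mean was a high light group in 42 members, most often 72 h, which was lowest in 21. In the fit described below, 45 of the 46 were called higher at 0.5 h, where 13.5% of all tested genes were, and 45 were called lower at 72 h, where 22.3% were. PDF1.2 was the exception at both times. Nothing follows from these counts because the rule fixed or shaped them. Just inside the thresholds lay CO with a 72 h ratio of -0.6, AT2G40230 with a 0.5 h ratio of 0.609 and ACA.l with a 72 h ratio of -0.622. Just outside lay the chloroplast gene ATCG00480 with a 0.5 h ratio of 0.598, the purine permease gene PUP8 with a 72 h ratio of -0.592 and the zinc finger gene ZF1 with a recovery ratio of -0.709.

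None of the libraries of 6, 12, 24 or 48 h entered the rule, so the light effect at these times could be tested. Most members, 30 of 46, were below growth light past the test at 12 h, and 40 were at 48 h. A gene is called higher or lower in high light when its adjusted p is below 0.05 in edgeR's quasi-likelihood test (Benjamini-Hochberg over all 21449 genes). At 6 h, 5 members were called higher, 20 were called lower and 21 did not pass, where 22.9% of all tested genes were higher and 18.2% lower. The 12 h libraries had 2 members higher and 30 lower, against 24.1% and 21.1% of all genes. After 24 h no member was higher and 33 were lower, against 26% and 23.9%. After 48 h no member was higher and 40 were lower, against 24.5% and 23%. DESeq2's Wald test also called none higher at 24 and 48 h, and at an unadjusted p below 0.05 in edgeR's test 1 was higher at 24 h and 0 at 48 h. The median log2 fold change over the 46 was -0.39, -0.83, -0.73 and -1.06 at these times, and that of all genes lay between 0.01 and 0.025. At 48 h, 6 members were not called, namely SRG3, GolS3, CO, XTH19, CRK13 and PDF1.2.

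**Figure D1:**
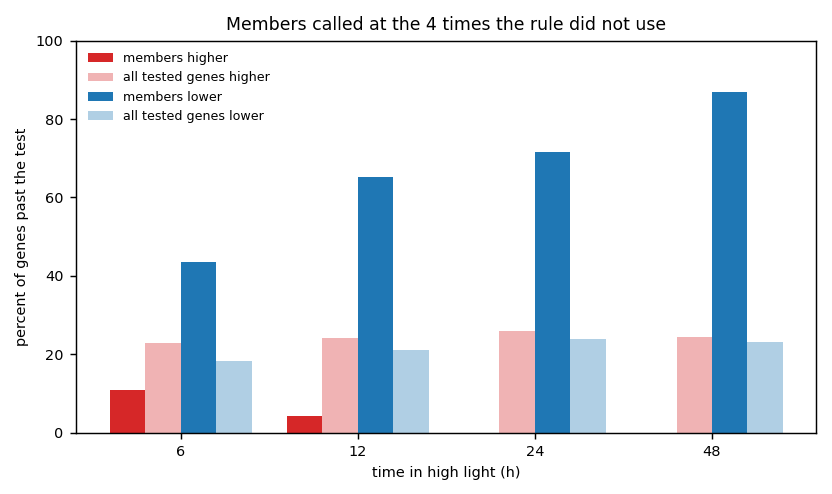
Percent of the 46 members (dark bars) and of all 21449 tested genes (pale bars) that were higher (red) or lower (blue) in high light at 6, 12, 24 and 48 h, by edgeR's test at an adjusted p below 0.05. The share of members that were lower grew from 43.5% at 6 h to 87% at 48 h, and the share that were higher went from 10.9% to 0.

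Called lower at all 4 of these times were 16 members, a pattern that 7.42% of all tested genes had. Lower at 3 times were 12 members, at 2 times 9 and at 1 time 5, beside 1535, 2170 and 3164 of the 21449 tested genes. The 4 members lower at none were XTH19, SRG3, CRK13 and GolS3, and 60.6% of all tested genes were lower at none. The first call of lower came at 6 h in 20 members, at 12 h in 13, at 24 h in 6 and at 48 h in 3, against 18.2%, 8.96%, 7.66% and 4.6% of all tested genes. Called higher at any of the 4 times were 5 members, AT1G05575, SRG3, AIF1, CRK13 and XTH19, all at 6 h, while 42.8% of all tested genes were higher at 1 or more of the 4 times. Of the 5 members, XTH19 and SRG3 were higher at 12 h too. With upper-quartile scaling factors SRG3 did not pass edgeR's test at 6 h (0.38 ± 0.15, adjusted p = 0.0517). The 6 h call of SRG3 had an adjusted p of 0.159 without the first and 0.0754 without the second growth light library, and 0.234 without the second high light one. That of AT1G05575 had 0.0823 to 0.133 without any 1 of the 4 libraries.

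Genes that met only 1 condition of the rule are given as a description, with no test of the difference. Those low at 72 h had shares of lower genes near those of the members, and those high at 0.5 h did not. Among the 1426 other genes high at 0.5 h that were tested, 53.5% were higher and 5.2% lower at 6 h, and 51.7% were higher and 7.5% lower at 48 h. Among the 1919 tested other genes low at 72 h, 5.6% were higher and 44.3% lower at 6 h, and 90.8% were lower at 48 h. The corresponding shares of members that were lower were 43.5% and 87%. The median log2 fold change at 6 h was 0.51 in the other genes high at 0.5 h, -0.38 in the other genes low at 72 h and -0.39 in the members. At 48 h these medians were 0.37, -1.17 and -1.06. The 28 genes that met both light conditions but not the recovery condition had 7 higher and 6 lower at 6 h, and none higher and 17 lower at 48 h.

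Markers of several cell types moved over the same hours. The summed level of 14 root markers was 116 to 130 CPM in growth light and 44.7 to 55.1 CPM in high light at 48 h, and 10 of the 14 were lower. At 24 h it was 127 to 131 CPM in growth light and 55.1 to 68.7 CPM in high light, and 10 were lower. At 6 h the order was the opposite, with 61.9 to 91.8 CPM in growth light and 110 to 112 CPM in high light, and 2 of the 14 were higher and none lower. At 12 h the groups overlapped, at 90.2 to 128 and 84.8 to 99.3 CPM. Of 9 leaf mesophyll markers, 8 were lower at 48 h, with a summed level of 53413 to 53716 CPM in growth light and 33531 to 35736 CPM in high light. At 6 h 2 of the 9 were higher and 3 lower, at 12 h 1 and 5, and at 24 h 1 and 7. These markers are genes of photosynthesis and photorespiration (RBCS, RCA, LHCB, PSAD and GLDP genes). Whether their level per cell or the number of mesophyll cells changed was not tested. Of 6 guard cell markers, 3 were lower at 6 h and 4 at each of 12, 24 and 48 h, with 1 higher at 48 h. Their summed level was 61.7 to 62.3 CPM in growth light and 52.8 to 54.2 CPM in high light at 6 h, and 60.1 to 60.6 and 45.6 to 46.3 CPM at 12 h. At 48 h it was 54.8 to 59.0 and 44.5 to 46.5 CPM. Of 8 stomatal lineage markers 5 were lower at 6 h and 2 at 48 h, and of 10 vascular markers 2 and 4. Of 5 shoot meristem markers 3 were tested, and 1 was lower at 6 h and none at 48 h, with 1 higher at 48 h. All 14 root, 9 mesophyll and 6 guard cell markers had counts in each of these groups. The part of cell composition in the members' values was not tested.

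**Figure D2:**
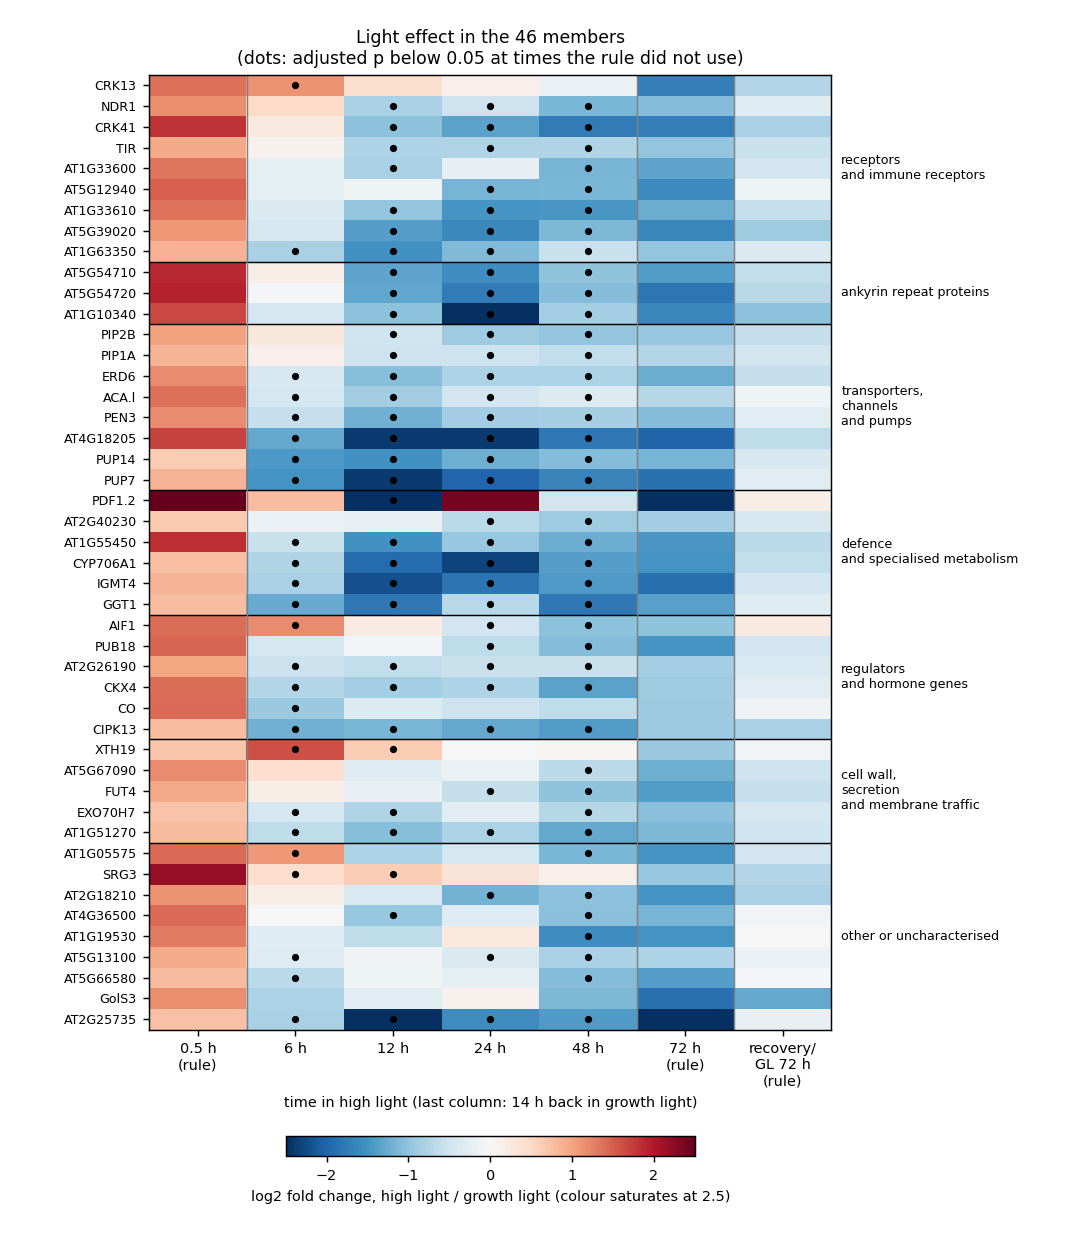
Fitted log2 fold change of high light against growth light at 6 times, and of recovery against 72 h growth light, for each of the 46 members in 7 groups set by hand (rows; red higher, blue lower). The outer columns were used by the rule, and dots mark an adjusted p below 0.05 at the 4 times that were not. Most rows turn blue by 12 h. At 6 h a dot on blue marks 6 of 8 transporters, 4 of 6 members of defence metabolism and 4 of 6 regulators.

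Receptors, immune receptors and genes placed with them made up 9 members. NDR1 is not annotated as a receptor, and AT1G33600, AT1G33610 and AT5G12940 are annotated only as leucine-rich repeat family proteins. Of the 9, 1 was lower and 1 higher at 6 h, and 7, 7 and 8 were lower at 12, 24 and 48 h. In the test of the change between times, the light effect of 5 of the 9 became lower from 6 to 12 h, namely AT1G33600, TIR, NDR1, CRK41 and AT5G39020, where 5.69% of all tested genes did. The groups of members used here were drawn by hand once the members were known. CRK41, a cysteine-rich receptor-like kinase, stood at 56.7 and 51.9 CPM in 0.5 h high light against 10.3 and 20.7 CPM in growth light. At 6 h it was 21.9 and 21.9 CPM in high light and 19.0 and 18.2 CPM in growth light, and at 48 h 2.58 and 2.5 CPM against 9.13 and 6.76 CPM. The high light libraries lay below both growth light libraries from 12 h on, and the log2 fold change was 0.24 ± 0.20 (SE) at 6 h (adjusted p = 0.36) and -1.75 ± 0.28 at 48 h (adjusted p = 2.4e-05). Growth light libraries fell with time as well, so that 72 h held 6.12 and 6.70 CPM. Its relative CRK13 was still higher at 6 h, by 1.13 ± 0.27 on the log2 scale (adjusted p = 0.0019), and was not called at 12, 24 or 48 h. The CRK family was looked at after these values were seen. Of its 32 tested genes, 5 were higher and 9 lower at 6 h, 1 and 16 at 12 h, 4 and 20 at 24 h, and 4 and 14 at 48 h.

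The leucine-rich repeat genes AT1G33600 (chr1:12180483-12184528) and AT1G33610 (chr1:12188678-12190461) lie on the same strand with 1 protein-coding gene between them. AT1G33600 stood at 39.6 and 37.2 CPM in 12 h high light against 63.4 and 72.6 CPM, at 47.3 and 43.8 CPM against 51.8 and 51.3 CPM at 24 h, and at 21.1 and 25.9 CPM against 50.7 and 45.9 CPM at 48 h. It was lower at 12 h (log2 fold change -0.81 ± 0.11, adjusted p = 2e-06) and at 48 h (-1.16 ± 0.11, adjusted p = 2.8e-08), and at 24 h the difference did not pass (-0.20 ± 0.11, adjusted p = 0.14). AT1G33610 was lower at 12, 24 and 48 h, with -1.48 ± 0.19 at 24 h (adjusted p = 8.7e-07). Another leucine-rich repeat gene, AT5G12940, was first lower at 24 h, by -1.16 ± 0.14 (adjusted p = 6.1e-07).

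NDR1, a plasma membrane protein needed for resistance mediated by a class of intracellular immune receptors, and TIR, which carries the signalling domain of another class, were both lower at 12, 24 and 48 h. For NDR1 the log2 fold change at 48 h was -1.14 ± 0.22 (adjusted p = 0.00021). The 24 h call of NDR1 was lost with DESeq2's Wald test (adjusted p = 0.0831) and without the second growth light, the first high light or the second high light library (adjusted p = 0.286, 0.0597 and 0.229). Its 12 h call was lost without the second library of either light (adjusted p = 0.0628 and 0.0579). TIR stood at 15.8 and 17.7 CPM in 6 h growth light and at 44.0 and 45.6 CPM in 48 h growth light, while high light held 17.3 and 18.1 CPM and then 27.4 and 30.3 CPM. TIR rose in both lights, by 1.44 ± 0.11 on the log2 scale in growth light and by 0.59 ± 0.11 in high light (adjusted p = 3e-08 and 0.00018), and its light effect was lower at 48 h than at 6 h by -0.85 ± 0.16 (adjusted p = 0.00049). AT1G63350, annotated as an intracellular immune receptor with coiled-coil and leucine-rich repeat parts, was the receptor gene already lower at 6 h (-0.82 ± 0.25, adjusted p = 0.012). That call was lost without the first growth light or the second high light library (adjusted p = 0.0832 and 0.0885). Its 48 h call was lost without any 1 of the 4 libraries (adjusted p = 0.0515 to 0.153) and with DESeq2's Wald test (adjusted p = 0.0736).

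The 3 ankyrin repeat genes had the same calls, with none past the test at 6 h and all 3 lower at 12, 24 and 48 h. AT5G54710 (chr5:22227483-22230663) and AT5G54720 (chr5:22231448-22232949) are direct neighbours on the minus strand, and reads shared between such similar copies make the value of each less certain. AT5G54710 stood at 62.3 and 67.9 CPM in 0.5 h high light against 12.5 and 22.5 CPM in growth light. Its 6 h libraries did not separate much, with 9.55 and 10.2 CPM in high light and 9.04 and 8.79 CPM in growth light, and 12 h held 7.68 and 6.78 CPM against 15.4 and 20.8 CPM. The log2 fold change at 12 h was -1.31 ± 0.20 (adjusted p = 9.5e-06). At 24 h AT1G10340 had the largest fall of the 3, at 0.534 and 0.569 CPM in high light against 3.12 and 3.27 CPM in growth light (-2.54 ± 0.26, adjusted p = 3.9e-08). Its 12 h call was lost without the second library of either light (adjusted p = 0.0607 and 0.077), and its 48 h call without the first of either (adjusted p = 0.0545 and 0.115).

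Transporters, channels and pumps made up 8 members, of which 6 were lower at 6 h and all 8 at 12, 24 and 48 h. The 6 became 4 without the first 6 h high light library. The purine permeases move purines and, in some cases, cytokinins across membranes. AT4G18205 (chr4:10073711-10075370), annotated as a nucleotide-sugar transporter family protein, follows PUP7 (chr4:10071481-10073557) on the plus strand, and PUP8 (chr4:10069458-10071115), which just missed the rule, precedes both. AT4G18205 stood at 76.4 and 71.5 CPM in 0.5 h high light, against 17.6 and 28.2 CPM in growth light. By 6 h high light held 3.40 and 4.21 CPM and growth light 9.04 and 9.63 CPM, and at 24 h 3.33 and 3.26 CPM stood against 16.6 and 17.4 CPM. All high light libraries from 6 to 72 h lay below all growth light libraries, and recovery reached 13.8 and 12.9 CPM. The log2 fold change was -1.27 ± 0.19 at 6 h (adjusted p = 1.3e-05), -2.40 ± 0.17 at 12 h (adjusted p = 3e-10) and -1.79 ± 0.17 at 48 h (adjusted p = 1.5e-08). PUP7 was lower at the same 4 times, with -2.39 ± 0.21 at 12 h, and so was PUP14, which imports cytokinins, with -1.44 ± 0.12 at 6 h (adjusted p = 2.5e-09). Reads of the tandem copies may be split between them, and PUP14 overlaps a counted gene on the other strand. The PUP family was looked at after these values were seen. Of its 11 tested genes, which leave out AT4G18205, 0 were higher and 6 lower at 6 h, and 0 and 4 at 12 h. At 24 h 2 were higher and 5 lower, and at 48 h 3 and 6. PUP10 was higher at 24 h (1.62 ± 0.23, adjusted p = 3.6e-06) and 48 h (0.81 ± 0.22, adjusted p = 0.0044).

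**Figure D3:**
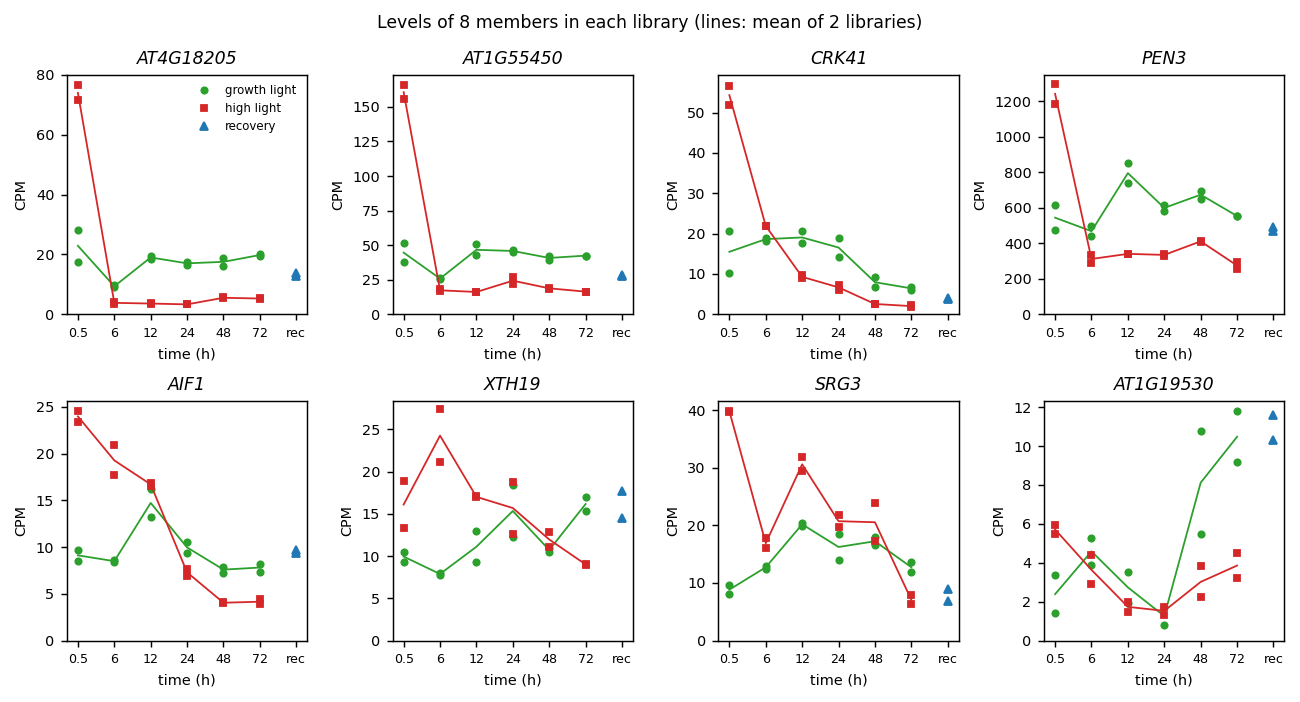
Level in CPM of 8 members in each library against time, in growth light (green circles), high light (red squares) and recovery (rec, blue triangles), with lines through the mean of 2 libraries. The 4 upper genes drop under growth light by 6 or 12 h. The high light mean lies above growth light until 12 h in AIF1 and until 48 h in XTH19 and SRG3, though no difference of the latter 2 passed the test at 24 or 48 h.

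PEN3, an ABC transporter that exports defence compounds at sites of attempted fungal entry, stood at 1299 and 1186 CPM in 0.5 h high light and 475 and 614 CPM in growth light. At 6 h it held 287 and 336 CPM in high light against 496 and 441 CPM, and at 12 h 341 and 339 CPM against 739 and 852 CPM. It was lower at all 4 times, from -0.57 ± 0.12 at 6 h (adjusted p = 0.00046) to -1.21 ± 0.12 at 12 h (adjusted p = 2.9e-08). ERD6, a sugar transporter family gene named for its early response to dehydration, stood at 210 and 195 CPM in 0.5 h high light against 72.2 and 107 CPM. It was lower at all 4 times as well, by -1.06 ± 0.12 at 12 h (adjusted p = 1.4e-07), but its 6 h call was lost without the first high light library (adjusted p = 0.0915). ACA.l, annotated as an autoinhibited calcium ATPase, had the smallest fall of the transporters at 48 h, -0.35 ± 0.12 (adjusted p = 0.017), a call that was lost without any 1 of the 4 libraries (adjusted p = 0.0555 to 0.0787). Its 6 h call was lost without the first high light library (adjusted p = 0.141).

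The aquaporins PIP1A and PIP2B, water channels of the plasma membrane, were the 2 transporters not yet lower at 6 h. PIP2B stood at 164 and 150 CPM in 6 h high light against 138 and 120 CPM, with 0.29 ± 0.12 and an adjusted p of 0.053. At 48 h it held 87.1 and 77.6 CPM against 147 and 152 CPM, and its light effect had fallen by -1.27 ± 0.17 between the 2 times (adjusted p = 9.2e-06). PIP1A was lower by -0.52 ± 0.08 at 12 h and -0.61 ± 0.08 at 48 h. The whole PIP family was looked at after these values were seen. Of its 13 tested genes, 3 were higher and 6 lower at 6 h, 2 and 9 at 12 h, 3 and 10 at 24 h, and 1 and 10 at 48 h. At 0.5 h 9 were higher and none lower, among them RD28 with 2.76, which was higher at 6, 12 and 24 h too. PIP2;5 stayed higher throughout, from 0.70 at 0.5 h to 1.08 at 48 h, and PIP1;5 was lower by -1.66 at 6 h and -2.34 at 24 h. Some PIP copies are nearly identical, so the division of reads between PIP2B and RD28 is uncertain.

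**Figure D4:**
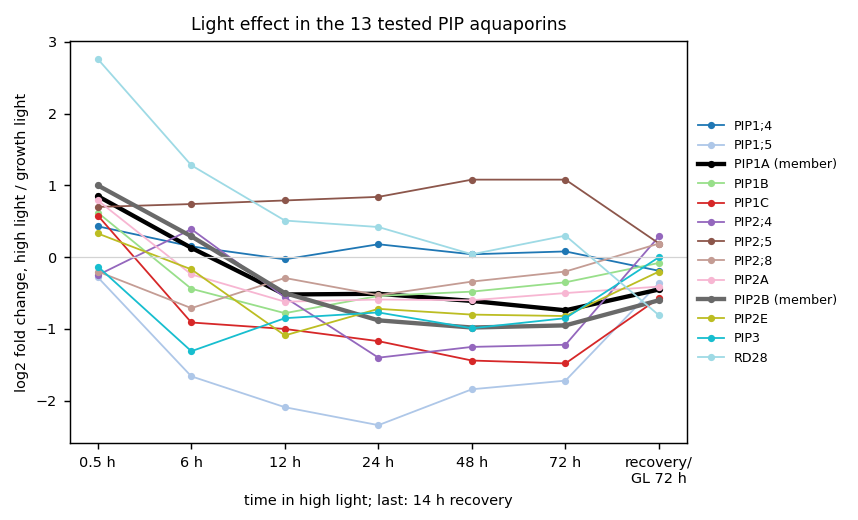
Fitted log2 fold change of high light against growth light for the 13 tested PIP aquaporin genes at 6 times and of recovery against 72 h growth light. The members PIP1A and PIP2B (thick lines) cross 0 between 6 and 12 h, PIP2;5 stays above 0, and PIP1;5 lies lowest from 6 to 72 h.

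Defence and specialised metabolism had 6 members, of which 4 were lower at 6 h and 5 at 12, 24 and 48 h. IGMT4, which methylates indole glucosinolates, stood at 29.5 and 29.4 CPM in 12 h high light against 127 and 146 CPM, and at 34.9 and 38.6 CPM against 98.8 and 82.1 CPM at 48 h. The log2 fold change was -0.82 ± 0.16 at 6 h and -2.20 ± 0.16 at 12 h (adjusted p = 0.00025 and 4.2e-10). Its relatives were looked at after values were seen. IGMT1 was lower at 24 and 48 h too, by -1.08 ± 0.37 and -0.93 ± 0.34 (adjusted p = 0.0179 and 0.0287), and did not pass at 6 or 12 h. IGMT2 was higher at all 4 times, by 2.46 at 6 h and 1.24 at 48 h, IGMT3 was higher at 6 and 12 h, and IGMT5 at 6, 12 and 48 h. IGMT1 to IGMT4 are similar neighbours, so these counts are uncertain where reads match more than 1 copy. CYP706A1, a cytochrome P450, held 13.4 and 13.9 CPM in 24 h high light against 64.6 and 69.1 CPM (-2.31 ± 0.17, adjusted p = 1.5e-10).

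AT1G55450, a predicted methyltransferase, stood at 166 and 155 CPM in 0.5 h high light against 37.9 and 51.3 CPM in growth light. At 6 h 17.9 and 16.7 CPM stood against 25.3 and 26.3 CPM, and at 48 h 18.2 and 19.2 CPM against 42.5 and 39.0 CPM, and in both cases the groups did not overlap. It was lower by -0.56 ± 0.13 at 6 h (adjusted p = 0.0011) and -1.24 ± 0.12 at 48 h (adjusted p = 2.8e-08). GGT1, a gamma-glutamyl transpeptidase that breaks down glutathione outside the cell, was lower at all 4 times, with -1.26 ± 0.10 at 6 h, -0.70 ± 0.09 at 24 h and -1.78 ± 0.10 at 48 h. AT2G40230, an acyltransferase family gene, was first lower at 24 h.

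PDF1.2, a defensin used as a marker of the jasmonate and ethylene response, had no count in 0.5 h growth light, where 3 counts per library would be 0.157 CPM. The 0.5 h high light libraries held 51 and 25 counts, or 1.60 CPM on average, which is at least 10.2-fold higher than that floor. Its replicates disagreed widely, with 99 and 0 counts at 6 h and 283 and 5 counts at 48 h in growth light. The 12 h call of lower rests on 1 library, the second of 12 h growth light with 215 counts beside 1 in the first, and without it the call is lost and the sign turns (0.78, adjusted p = 0.935). The call was lost without either 12 h high light library too (adjusted p = 0.115 and 0.0895).

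Among 6 regulators and hormone genes, 4 were lower and 1 higher at 6 h, and 3, 5 and 5 were lower at 12, 24 and 48 h. AIF1, a helix-loop-helix protein that restrains brassinosteroid-driven growth, was the one that was higher. It stood at 20.9 and 17.7 CPM in 6 h high light against 8.62 and 8.36 CPM, at 16.9 and 16.5 CPM against 13.2 and 16.2 CPM at 12 h, and at 4.01 and 4.07 CPM against 7.89 and 7.28 CPM at 48 h. The libraries crossed over, from 1.19 ± 0.11 at 6 h (adjusted p = 1.6e-08) to -0.47 ± 0.12 at 24 h (adjusted p = 0.002) and -1.02 ± 0.13 at 48 h (adjusted p = 1.3e-06). CKX4, which degrades cytokinin and whose upstream W-box matches are printed above, was lower at all 4 times, with -0.73 ± 0.16 at 6 h and -1.34 ± 0.16 at 48 h (adjusted p = 0.00097 and 4.5e-07). Without the first 6 h growth light library its 6 h value was -0.50 (adjusted p = 0.0596). CIPK13, a kinase of the calcineurin B-like calcium sensor network, was lower by -1.21 ± 0.19 at 6 h and -1.39 ± 0.20 at 48 h. AT2G26190, a predicted calmodulin-binding protein, was also lower at all 4 times, between -0.61 ± 0.09 at 12 h and -0.53 ± 0.09 at 6 h.

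CO (CONSTANS), the regulator of flowering by day length, was lower at 6 h, at 1.32 and 1.53 CPM against 2.49 and 3.09 CPM (-0.93 ± 0.27, adjusted p = 0.0081). The call was lost without the second growth light or the first high light library (adjusted p = 0.0687 and 0.0689). Later differences did not pass, with -0.52 ± 0.25 at 24 h (adjusted p = 0.085) and -0.63 ± 0.27 at 48 h (adjusted p = 0.065). CO overlaps a counted gene on the opposite strand, and the strand setting of the counting is not given in the sources used here. PUB18, a ubiquitin ligase, was lower at 24 and 48 h, though its 24 h call was lost with DESeq2's Wald test (adjusted p = 0.099) and without the first growth light or the second high light library (adjusted p = 0.147 and 0.263).

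Of the 5 genes of the cell wall, secretion and membrane traffic, 2 were lower at each of 6, 12 and 24 h and 4 at 48 h. XTH19, which cuts and rejoins xyloglucan in growing walls, was higher at 6 h, at 27.4 and 21.1 CPM against 8.02 and 7.76 CPM, and its groups overlapped at 24 h. The log2 fold change was 1.62 ± 0.20 at 6 h (adjusted p = 8.1e-07), 0.63 ± 0.19 at 12 h (adjusted p = 0.0095, and 0.142 without the second growth light library) and 0.04 ± 0.20 at 48 h (adjusted p = 0.88). At 72 h, which the rule used, 8.95 and 9.09 CPM stood against 15.4 and 17.0 CPM. FUT4, a fucosyltransferase, was first lower at 24 h and reached -1.0 ± 0.16 at 48 h (adjusted p = 2.8e-05). EXO70H7, an exocyst subunit, and AT1G51270, annotated as vesicle-associated, were lower at 6 h by -0.43 ± 0.14 and -0.64 ± 0.17 (adjusted p = 0.017 and 0.004). The EXO70H7 call was lost when only the 6 h groups were fitted (adjusted p = 0.0807) and without either growth light library or the first high light library (adjusted p = 0.0718, 0.057 and 0.276). That of AT1G51270 was lost without the first growth light library (adjusted p = 0.121). AT5G67090, a subtilisin-like protease gene, was lower only at 48 h, and its adjusted p was 0.047 there and 0.117 with DESeq2's Wald test, and 0.101 to 0.175 without any 1 of the 4 libraries.

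The other 9 members had 3, 2, 3 and 7 calls of lower at the 4 times and, at 6 and 12 h, 2 and 1 of higher. SRG3, a senescence-related gene of the glycerophosphodiester phosphodiesterase family, had the highest 0.5 h ratio after PDF1.2 in the fit, with 40.0 and 39.7 CPM against 8.10 and 9.59 CPM. At 12 h it held 29.4 and 31.8 CPM against 20.5 and 19.9 CPM, and was higher by 0.61 ± 0.14 (adjusted p = 0.0011). At 48 h the difference was 0.13 ± 0.15 (adjusted p = 0.48), and at 72 h 7.85 and 6.29 CPM stood against 11.8 and 13.6 CPM. Its high light libraries thus lay above both growth light libraries at 12 h, as they did at 24 h with no difference past the test (0.33 ± 0.15, adjusted p = 0.0703), overlapped with them at 48 h and lay below both at 72 h. AT1G05575, of unknown function, was higher at 6 h (1.08 ± 0.40, adjusted p = 0.034) and lower at 48 h (-1.14 ± 0.32, adjusted p = 0.0057, and 0.0512 without the first high light library), and its 6 h call was lost with DESeq2's Wald test (adjusted p = 0.111), without a low-count filter and with only the 6 h groups in the fit.

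AT4G36500, with its pair of W-box matches, stood at 56.7 and 50.4 CPM in 0.5 h high light against 17.5 and 22.6 CPM, and at 9.61 and 10.08 CPM against 19.0 and 18.3 CPM at 48 h (-1.04 ± 0.15, adjusted p = 7.8e-06). AT2G25735, of unknown function, was lower at all 4 times and most at 12 h, with 0.471 and 0.505 CPM against 3.22 and 3.21 CPM (-2.70 ± 0.30, adjusted p = 1.6e-07). Its 6 h call was lost without the second growth light or either high light library (adjusted p = 0.256, 0.0943 and 0.0751), and its 48 h call without the first growth light library (adjusted p = 0.0555). AT1G19530 varied most in growth light, where its group means differed by up to 8.32-fold over time against a median of 1.78-fold over the 45 members other than PDF1.2. Growth light held 1.70 and 0.818 CPM at 24 h and 9.18 and 11.8 CPM at 72 h, and high light 1.73 and 1.33 CPM and then 3.23 and 4.49 CPM, so the growth light level beside which its 72 h ratio stands was higher than that of 24 h. GolS3, which makes galactinol, a precursor of protective sugars, was called at none of the 4 times.

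The light effects themselves were compared between times, using each time's own growth light. The rule chose genes with a high effect at 0.5 h and a low one at 72 h. A fall at the times between was therefore favoured by the choice of members. Genes that met only 1 condition of the rule were not counted for these differences. Between 6 and 12 h the effect became lower in 21 members and higher in none, where 5.69% of all tested genes became lower and 3.93% higher. This count was 12 without the second 12 h high light library and 13 without the second 6 h high light library, and the other 6 libraries left out gave counts up to 20. From 12 to 24 h 3 members became lower and 4 higher (7.58% and 7.18% of all genes), and from 24 to 48 h 6 became lower and 2 higher (7.35% and 5%). Over the whole span from 6 to 48 h, 21 became lower and none higher, where 15.2% of all genes became lower and 10.4% higher, and the count was 17 to 22 when single libraries were left out. DESeq2's Wald test called none higher over either span, and at an unadjusted p below 0.05 in edgeR's test 2 were higher for 12 h minus 6 h and 1 for 48 h minus 6 h. Among members with at least 5 CPM the most negative changes from 6 to 48 h were AIF1 with -2.21 ± 0.17, CRK41 with -2.00 ± 0.35, XTH19 with -1.58 ± 0.28 and PIP2B with -1.27 ± 0.17.

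**Figure D5:**
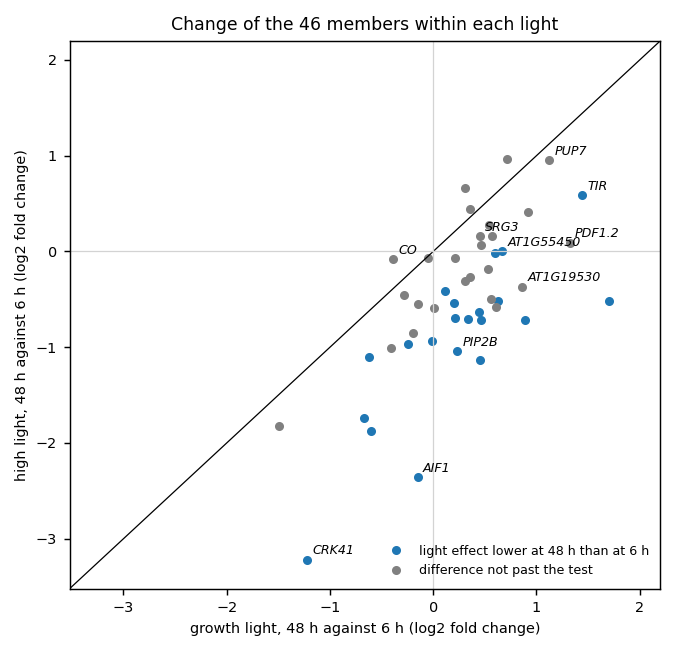
Change from 6 to 48 h within growth light (x axis) and within high light (y axis) for the 46 members, as fitted log2 fold changes, with the line of equal change. Blue points, 21 members, had a lower light effect at 48 h than at 6 h in edgeR's test and lie below the line, and CRK41 and AIF1 fell most in high light.

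The change was then split by light. In high light from 6 to 48 h, 21 members fell and 5 rose (25.7% and 23.8% of all genes), with a median log2 fold change of -0.51. In growth light over the same hours, 14 rose and 4 fell (12.9% and 12.8% of all genes), with a median of 0.35. The 14 became 7 without the second 6 h growth light library and 9 without the first 48 h one. AIF1 fell in high light by -2.36 ± 0.12 (adjusted p = 3.1e-12) and did not pass in growth light (-0.15 ± 0.12, adjusted p = 0.39). AT1G55450 showed the other case, with no difference past the test in high light (0.00 ± 0.13, adjusted p = 0.99) and a rise of 0.67 ± 0.12 in growth light (adjusted p = 0.00035). PUP7 rose in both, by 1.12 ± 0.19 and 0.95 ± 0.24.

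Recovery and both 72 h groups entered the rule, so they are described without a test and nothing follows from the counts. The recovery libraries were taken 14 h later than the 72 h growth light libraries, and no growth light group of that later time exists. A return and a change with seedling age therefore cannot be told apart in these values. After 14 h back in growth light, both recovery libraries lay above both 72 h high light libraries in 41 of the 46 members, as in 32.3% of all tested genes. They lay below both 72 h growth light libraries in 35 members, as in 22.3% of all tested genes. Because the limits on the 72 h and recovery ratios overlap, a gene could meet the rule with hardly any return, as CIPK13 did with a 72 h ratio of -0.626 and a recovery ratio of -0.583. The share of the 72 h gap that the recovery mean had regained had a median of 54.7% and ran from 5.51% in CIPK13 to 148% in AIF1, and it was over 50% in 26 members. SRG3 regained 14.5% and GolS3 21.3%, while AT5G12940 regained 95.2%, AT4G36500 98.7% and XTH19 99.2%. The summed root markers held 60.0 to 78.3 CPM in recovery, between 35.3 to 36.9 CPM in 72 h high light and 103 to 107 CPM in growth light.

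Of the 46 members, 40 are in none of the 14 pathway lists used as background for seedlings in high light. PEN3 is in the list for pattern-triggered immunity, the response to microbial surface molecules. Of its 43 tested genes 14 were higher and 6 lower at 6 h, and 12 were higher and 8 lower at 48 h. NDR1 and TIR are in the list for salicylic acid and effector immunity, where 4 of 29 were higher and 5 lower at 6 h, and 5 were higher and 10 lower at 48 h. CKX4 is in the cytokinin list, which had 10 of 35 higher and 7 lower at 6 h, and 2 higher and 14 lower at 48 h. CO is in the list for light signalling and the clock, which had 24 of 71 higher and 37 lower at 6 h, and 17 higher and 32 lower at 48 h. XTH19 is in the cell wall list, where 7 of 61 were higher and 20 lower at 6 h, and 5 were higher and 42 lower at 48 h. The median log2 fold change at 48 h was 0.11 for pattern-triggered immunity, -0.11 for salicylic acid and effector immunity, -0.19 for cytokinin, -0.23 for light signalling and the clock and -0.48 for the cell wall, beside 0.02 over all tested genes. No member is in the other 9 lists, which cover calcium signalling, early stress transcription factors, jasmonate, ethylene, auxin, brassinosteroid and gibberellin, nutrition, sugars and abscisic acid. The lists do not hold every gene of a pathway. CIPK13, AT2G26190, PDF1.2 and AIF1, tied above to calcium, jasmonate and ethylene, or brassinosteroid, are in none of them.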

How the data were processed

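The members, the gene lists and the tests were chosen with earlier results of these data known. The authors deposited 1 table of raw counts per library, whole numbers for 33602 gene IDs without normalization. The tools listed, per the submitters' processing notes, are HTSeq 0.6.0, TopHat2 2.1.1 and edgeR, and the build is TAIR10. What each tool did, and whether counting used strand, is not stated. Counts of near-identical copies, and of 6 members that overlap a counted gene on the opposite strand (PUP14, CIPK13, SRG3, CO, EXO70H7 and AT5G67090), are therefore less certain. Replicate libraries differed beyond sampling noise, with a chi-square per gene of 1.73 to 11.83, so none was treated as a copy.

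Levels are CPM by library total. Tests used edgeR 4.0.16 in R 4.3.3 on all 26 libraries: TMM factors of 0.924 to 1.09, filterByExpr with a minimum count of 10, 1 mean per group, a common dispersion of 0.00428 on 13 residual degrees of freedom, the quasi-likelihood test and Benjamini-Hochberg adjustment over 21449 genes at 0.05. Errors are SE of the log2 fold change with n = 2 libraries per group.

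On simulated data, 14, 60, 88 and 96% of changes of 1.25, 1.5, 2 and 4-fold were recovered for the 24 h light effect, with 7 false calls among 21090 genes. For the difference between 48 and 6 h these shares were 0, 38, 78 and 88%, with 7 false calls among 21064 genes. In the simulation all groups shared the same mean and few genes were changed, in a single group. In the data 26% of genes were called higher and 23.9% lower at 24 h, so these rates do not carry over directly.

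Named are the 10 members with the largest smaller of the 2 rule ratios and at least 5 CPM at both times, up to 4 with the largest rise or fall at each other time, up to 4 per annotated role, members of a list, marker genes, genes next to a threshold, and up to 4 with the largest change of light effect each way. Others were named after their values were seen, as were the 7 hand-made groups and the gene families. Of 607 list symbols 584 distinct genes were matched. Of the symbols, 18, ambiguous ones among them, were set by locus ID after the annotation was read, 19 were not found and 1 stayed ambiguous. Gene names, promoters and positions come from RefSeq TAIR10.1.

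Alternatives were other scaling factors, other low-count filters, DESeq2 1.42.0, a replicate block, fits of only the groups compared, and each library left out. Other thresholds and added values were tried for the rule.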

Additional observations from a re-analysis of the deposited data

Results flagged for a closer look

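Light effects that differed between times past edgeR's test were seen in the members as follows. The effect was lower at 12 h than at 6 h in 21 members. It was higher at 24 h than at 12 h in 4 and lower in 3, and it was higher at 48 h than at 24 h in 2 and lower in 6. Over the span from 6 to 48 h it became lower in 21. A fall was favoured by the rule, which chose genes high at 0.5 h and low at 72 h. Groups of 2 libraries allow no search for a library that stands apart.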

How the results depend on the processing

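The number of members was 46 with the rule as given, 59 with TMM-scaled totals, 68 with 0.5 and 37 with 2 added to CPM, 21 with thresholds of 0.8 and -0.8, 11 with 1 and -1, and 19 when each replicate number had to meet the rule alone. Leaving out 1 library gave 40 to 72, and the 72 came without the second 0.5 h growth light library. After seeing the data, the shares called were recomputed in the 19 and in the 72. Of the 19, 42.1% were lower at 6 h, 78.9% at 12 h, 84.2% at 24 h and 100% at 48 h, and of the 72, 40.3%, 70.8%, 76.4% and 87.5%. Of 40 recomputed shares, 28 stayed within 1.5 times that of the 46 and 12 did not. The light effect fell from 6 to 12 h in 68.4% of the 19, 34.7% of the 72 and 45.7% of the 46. It rose from 12 to 24 h in 21.1%, 6.9% and 8.7%, and fell from 24 to 48 h in 26.3%, 9.7% and 13%. Higher at 6 h were 5.3%, 8.3% and 10.9%.

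Of 268 counts of members under an alternative, 243 stayed within 1.5 times the reported count. Apart from libraries left out and the 3 stricter forms of the rule above, the exceptions were members higher at 24 h, 1 with no filter on low counts and 1 with a replicate block, members lower for 24 h minus 12 h, 5 with no filter, and members higher for 48 h minus 6 h, 1 with only those groups in the fit. No scaling moved the median of all genes by 0.1. With 1 library left out, members lower numbered 15 to 20 at 6 h, 27 to 30 at 12 h, 31 to 33 at 24 h and 34 to 37 at 48 h, and members higher 3 to 4, 2 to 3, 0 to 1 and 0. Members lower ranged from 12 to 20 for 12 h minus 6 h, 2 to 4 for 24 h minus 12 h, 3 to 5 for 48 h minus 24 h and 17 to 22 for 48 h minus 6 h, and members higher from 1 to 4 for 24 h minus 12 h and 1 to 2 for 48 h minus 24 h. Members higher in growth light from 6 to 48 h ranged from 7 to 12 and lower from 2 to 4, and in high light from 3 to 6 and 15 to 21.

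The replicate numbers do not pair the samples: deviations of same-numbered libraries correlated between -0.24 and 0.29 over 78 pairs of groups, with 12 pairs above 0.1. With a replicate block, 1 member was higher at 24 h, the other counts of members stayed within 1.5 times, and 2 calls were lost, NDR1 at 24 h (adjusted p = 0.0529) and AT5G67090 at 48 h (0.0534). Of 2712 calls of single members under an alternative, 2566 stayed, 92 were lost, 53 gained and 1 reversed, PDF1.2 at 12 h, whose log2 fold change ranged from -6.91 to 0.78 with 1 library left out, the latter without the second 12 h growth light library (adjusted p = 0.935). The cause of the lost calls was not tested.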
